A study of Homo sapiens with 14 samples.

Results

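Untreated SUM159 cells were compared with untreated A549 cells by RNA sequencing. The libraries were chosen by their labels, which mark 2 libraries of each line as untreated, and these 4 are part of the 14 libraries in the series. A549 is an established human lung cancer line and SUM159 is an established triple-negative breast cancer line. Each is 1 line from 1 tumour, so every difference below is between these lines and not between lung and breast cancer. The libraries of each line are technical duplicates in the series description, so the p-values measure only the spread between such duplicates. A549 was grown in RPMI with serum, whereas SUM159 was grown in DMEM/F12 with serum, insulin and hydrocortisone, so that the line and its medium cannot be told apart. No drug had been given to these cells, and the time at which they were collected is not given in the sources used here. A second set of 4 libraries, from the same lines after 7 days in 0.5 µM PF-06873600 (an inhibitor of the cell cycle kinases CDK2, CDK4 and CDK6), shares no library with the untreated set and was used for the same contrast.

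The untreated A549 libraries held 14712412 and 15000694 reads counted on genes, and the SUM159 libraries held 16582253 and 15967162. Mitochondrially encoded genes took 5.22% and 4.18% of the counts in A549 and 2.38% and 4.0% in SUM159. Levels are given as CPM, the counts of a gene per 1000000 counts on genes in that library, with the values of both libraries of a line. Differences are log2 fold changes of SUM159 minus A549, so that a positive value is higher in SUM159. The value after ± is the size of the difference divided by the square root of the F statistic of edgeR's quasi-likelihood test. It is not a standard error of the estimate, and it is too small where a line had few counts. A gene was called when edgeR's quasi-likelihood test gave a Benjamini-Hochberg adjusted p under 0.05. The members of a list counted as higher or lower were called and also differed by at least 2-fold in the fit. Where a line had no count in either library, the difference is given as a bound against 3 counts per library. Where it had 1 to 3 counts in all, it is given as the ratio of CPM with an exact 95% interval, which covers counting error only.

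A cancer line keeps part of the gene program of the tissue it came from, through transcription factors that hold epithelial, mesenchymal or organ-specific genes active. On top of that lie the effects of its own oncogenes, lost tumour suppressors and altered metabolism. In lung adenocarcinoma the stress regulator NRF2 is often freed from its inhibitor KEAP1 and drives detoxification and NADPH-producing enzymes, and A549 is a known example. In triple-negative breast cancer, hormone receptors are lacking and a mesenchymal program is common.

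These lines differed across a large part of the genome. Of 15339 genes tested, 3828 (25.0%) were at least 2-fold higher and 3698 (24.1%) at least 2-fold lower in SUM159, together 49.1%. Without the condition on size, 6492 genes (42.3%) were called higher and 5566 (36.3%) lower by the edgeR test, together 78.6%, and a call alone therefore says little about a single gene. The median difference over all genes tested was 0.11 on the log2 scale. Scaling by TMM factors moved that median by 0.15, to -0.04, and lowered the fitted list medians of the untreated comparison by similar amounts. The bounds and CPM ratios below rest on total counts. The balance turned with TMM scaling, to 3342 genes at least 2-fold higher and 4074 lower, and with DESeq2 to 3239 and 3778. The members of each list below are to be read against these shares and this median. The lists were chosen with earlier results of these data known, so their counts are descriptive and no list was tested.

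**Figure D1:**
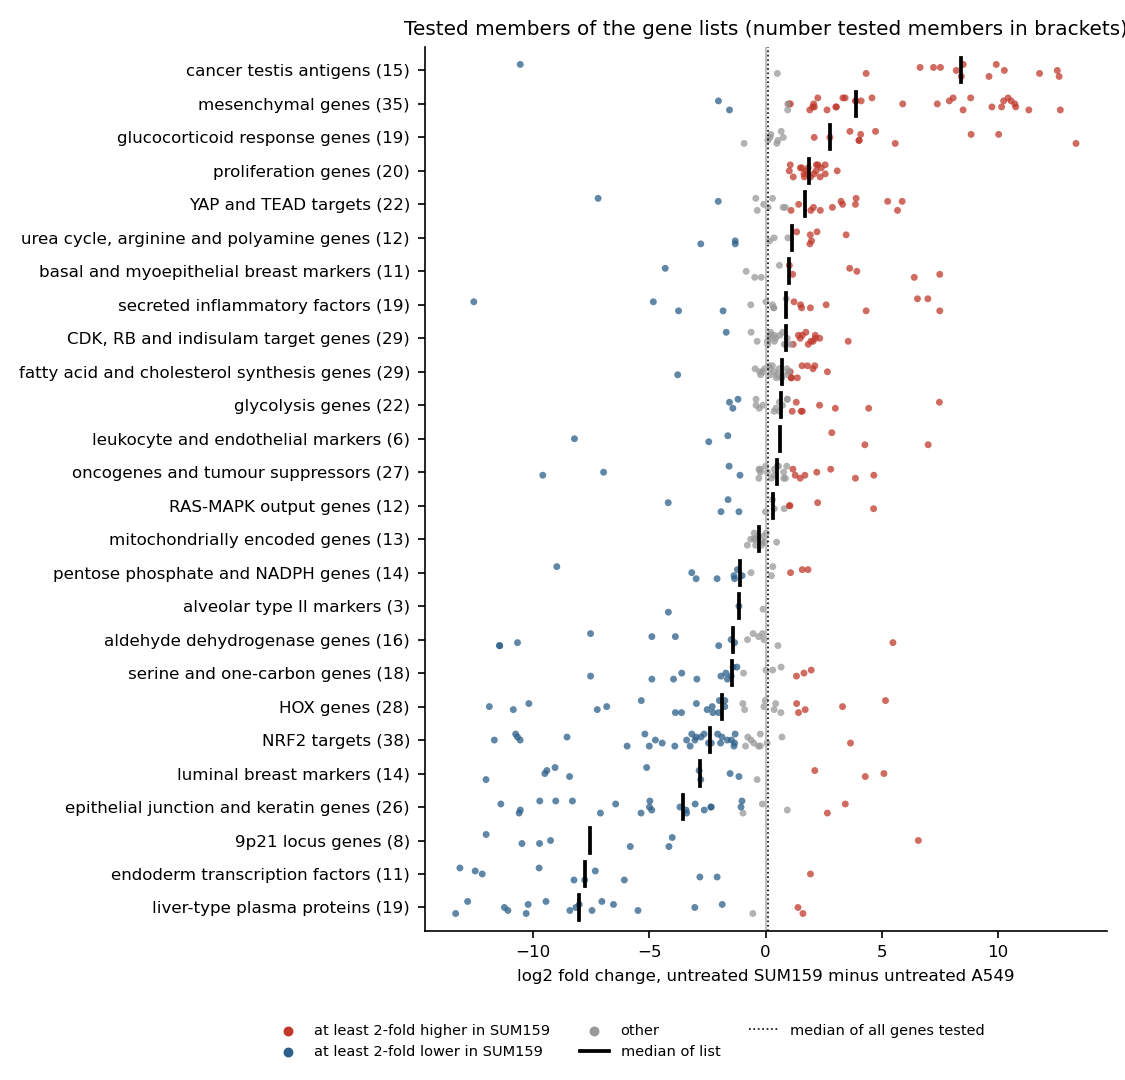
Log2 fold change between untreated SUM159 and untreated A549 (x axis) for each tested member of the gene lists (rows, ordered by median; 2 libraries per line). Points are genes, coloured where at least 2-fold different and called, black bars are list medians, and the dotted line is the median of all genes tested. Liver-type plasma proteins have the lowest median (-8.02) and cancer testis antigens the highest (8.42); points of genes with no count in a line depend on the prior count of the fit.

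A549 carried an endoderm program that SUM159 largely lacked. Transcription factors such as HNF4A and the FOXA family specify gut, liver and lung endoderm in the embryo. Of 13 such genes, 11 were tested, of which 10 were lower and 1 was higher in SUM159, with a median of -7.78 (-6.08 with genes at 0 set to their bound). FOXA3, a forkhead factor of liver and gut, read 39.1 and 36.1 CPM in A549 and had no count in SUM159, so it was at least 200-fold lower. FOXA1, a pioneer factor that opens chromatin in endoderm and in luminal breast cells, read 1.69 CPM in both SUM159 libraries against 114 and 115 CPM in A549 (-6.08 ± 0.14). HNF4A, the nuclear receptor that maintains hepatocyte genes, read 0.301 and 0.0626 CPM in SUM159 against 40.6 and 43.9 CPM in A549 (-7.78 ± 0.27). The lines did not overlap for any of these genes, which by itself says little with 2 libraries per line. The share of all genes without overlap was not counted. The member higher in SUM159 was GATA6, another endoderm regulator, which read 19.5 and 16.2 CPM in SUM159 against 5.17 and 4.20 CPM in A549 (1.93 ± 0.18). GATA4 had no count in any of the 4 libraries.

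The plasma proteins that these factors control in liver made up the list with the lowest median. Of 24 genes, 19 were tested, and 16 of them were lower and 2 higher in SUM159, with a median of -8.02 (-7.04 with genes at 0 at their bound). The 3 chains of fibrinogen, the clotting protein, were abundant in A549. FGA read 759 and 735 CPM there and 0.724 and 0.438 CPM in SUM159 (-10.30 ± 0.17). FGG read 666 and 709 CPM in A549 and 0.362 and 0.188 CPM in SUM159 (-11.24 ± 0.19). FGB had 3 counts in the first SUM159 library and none in the second, against 216 and 220 CPM in A549, a ratio of 2366 (interval 809 to 11475). Ceruloplasmin, the copper-carrying plasma ferroxidase (CP), read 916 and 930 CPM in A549 and below 1 CPM in SUM159 (-10.22 ± 0.16). FGL1, a fibrinogen-like protein secreted by liver, read 701 and 748 CPM in A549 with 3 counts in all in SUM159. The list was only partly expressed in A549, since albumin (ALB) had 3 and 1 counts in A549 and APOA1, APOB and HP had none. The genes higher in SUM159 were PROS1, the anticoagulant protein S (1.4 ± 0.12), and the fetal protein AFP, which read 1.57 and 1.75 CPM there and 0.476 and 0.6 CPM in A549 (1.61 ± 0.37).

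The label of A549 as a lung line was checked against markers of the alveolar type II cell, the surfactant-making cell of the lung. The defining markers were near 0 in A549. Surfactant protein genes SFTPA1, SFTPA2 and SFTPB had no count, SFTPC had 2 and 1 counts, and the lung lineage factor NKX2-1 had 1 and 2 counts. Only 3 of 12 markers could be tested, of which 2 were lower in SUM159. ABCA3, the lipid transporter of surfactant storage bodies, read 114 and 98.6 CPM in A549 and 6.27 and 5.45 CPM in SUM159 (-4.18 ± 0.13). Airway-type mucins were abundant in A549 instead. MUC5AC, a gel-forming mucin, read 3693 and 2576 CPM in A549 and 1.02 and 1.06 CPM in SUM159 (-11.54 ± 0.27), and MUC5B read 3621 and 2488 CPM against 0.482 and 0.313 CPM (-12.87 ± 0.31).

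The label of SUM159 as a triple-negative breast line was checked in the same way, and the hormone receptors were at or near 0. ESR1, the oestrogen receptor, had 5 and 1 counts in SUM159, and PGR, the progesterone receptor, had none. ERBB2 read 122 and 118 CPM in SUM159 and 166 and 143 CPM in A549, which was called but under 2-fold (-0.36 ± 0.10). Of 18 luminal breast markers, 14 were tested, of which 10 were lower and 3 higher in SUM159 (median -2.82). The secreted disulphide isomerase AGR2 read 3343 and 3659 CPM in A549 and 0.784 and 0.877 CPM in SUM159 (-12.03 ± 0.19). SPDEF, a factor of secretory epithelium, read 82.6 and 62.3 CPM in A549 and had 1 and 2 counts in SUM159. The members higher in SUM159 were 2 mammary transcription factors and the prolactin receptor PRLR (2.12 ± 0.38). TBX3, a T-box factor needed for mammary bud formation, read 91.3 and 90.9 CPM in SUM159 and 2.99 and 2.33 CPM in A549 (5.09 ± 0.14). GATA3, the regulator of luminal cell fate, was low in both lines but read 6.27 and 5.89 CPM in SUM159 against 0.340 and 0.267 CPM in A549 (4.29 ± 0.33). FOXC1, which is on this list although it is better known from basal-like tumours, was among the lower members (-2.86 ± 0.10).

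Among basal and myoepithelial breast markers, more were higher than lower in SUM159, but the summed level was higher in A549. Of 17, 11 were tested, of which 6 were higher and 1 lower in SUM159 (median 1.02), and the sum was 778 and 773 CPM in SUM159 against 1321 and 1041 CPM in A549, where ITGB4 was the most abundant. COL17A1, a collagen of hemidesmosomes, read 13.4 and 14.9 CPM in SUM159 against 0.952 and 1.33 CPM in A549 (3.62 ± 0.23). LAMB3, a laminin chain of the basement membrane, read 195 and 190 CPM against 95.2 and 76.6 CPM (1.17 ± 0.11). The integrin ITGA6 read 254 and 251 CPM against 120 and 129 CPM, close to the 2-fold limit (1.02 ± 0.09). The basal keratins that define this cell type were scarce in SUM159, with 10 and 11 counts for KRT5 and 5 and 2 for KRT14, and TP63 read 12.3 and 11 CPM against 19.2 and 22.3 CPM in A549 (-0.83 ± 0.14). ITGB4, the integrin of hemidesmosomes, read 39.6 and 40.7 CPM in SUM159 against 944 and 656 CPM in A549 (-4.32 ± 0.17).

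The epithelial and mesenchymal lists moved in opposite directions. Of 34 genes of cell junctions and keratins, 26 were tested, of which 21 were lower and 2 higher in SUM159 (median -3.55). E-cadherin (CDH1), which holds epithelial cells together, read 160 and 152 CPM in A549 and had 3 counts in the first SUM159 library and none in the second, a ratio of 1691 (interval 578 to 8203). CLDN2, a claudin that forms cation pores in leaky epithelia, read 1321 and 1363 CPM in A549 and 0.482 and 0.501 CPM in SUM159 (-11.39 ± 0.17). ELF3, an epithelial ETS factor, read 193 and 182 CPM in A549 and 0.301 and 0.125 CPM in SUM159 (-9.71 ± 0.20). The lines did not overlap for any of these genes, but the share of all genes without overlap was not counted. Simple-epithelial keratins KRT8 and KRT18 were lower but present, with KRT18 at 321 and 297 CPM in SUM159 against 2652 and 2389 CPM in A549 (-3.03 ± 0.12). KRT19 read 0.422 and 0.438 CPM against 255 and 202 CPM (-9.03 ± 0.21). KRT80 went the other way, at 240 and 217 CPM in SUM159 and 37.9 and 34.4 CPM in A549 (2.66 ± 0.10), and KRT7, at 1922 and 1833 CPM against 1062 and 901 CPM, was called but under 2-fold (0.94 ± 0.11). The epithelial splicing and identity factors ESRP1, ESRP2 and GRHL2 had at most 7 counts in any of the 4 libraries, in A549 as well as in SUM159.

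Of 36 mesenchymal genes, 35 were tested, of which 31 were higher and 2 lower in SUM159 (median 3.90). Their summed level was 18877 and 19596 CPM in SUM159 against 4358 and 4237 CPM in A549, and 9 of the 36 had at most 3 counts in each A549 library. Among the transcription factors that repress epithelial genes, ZEB2 read 51.5 and 49.7 CPM in SUM159 with a single count in A549, a ratio of 1504 (interval 270 to 59420). SNAI2 read 66.7 and 61.0 CPM in SUM159 against 0.204 and 0.133 CPM in A549 (8.50 ± 0.22). ZEB1 was at the 2-fold limit, with 69.5 and 64.1 CPM against 30.9 and 35.7 CPM (1.00 ± 0.11). Several collagens were among the higher members. COL6A3, a chain of type VI collagen, read 2579 and 3182 CPM in SUM159 and 1.36 and 0.867 CPM in A549 (11.33 ± 0.22). COL1A1, the main chain of type I collagen, read 1599 and 1700 CPM against 1.90 and 1.93 CPM (9.74 ± 0.16). SPARC, a collagen-binding matrix protein, read 630 and 571 CPM against 0.408 and 0.267 CPM (10.77 ± 0.19). Vimentin (VIM), the mesenchymal intermediate filament, was expressed by both lines, at 4318 and 4006 CPM in SUM159 and 701 and 628 CPM in A549 (2.65 ± 0.12). Fibronectin (FN1) differed by less than 2-fold (0.95 ± 0.13). The members lower in SUM159 were S100A4, a calcium-binding protein of motile cells (-2.03 ± 0.10), and smooth muscle actin ACTA2 (-1.55 ± 0.18).

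**Figure D2:**
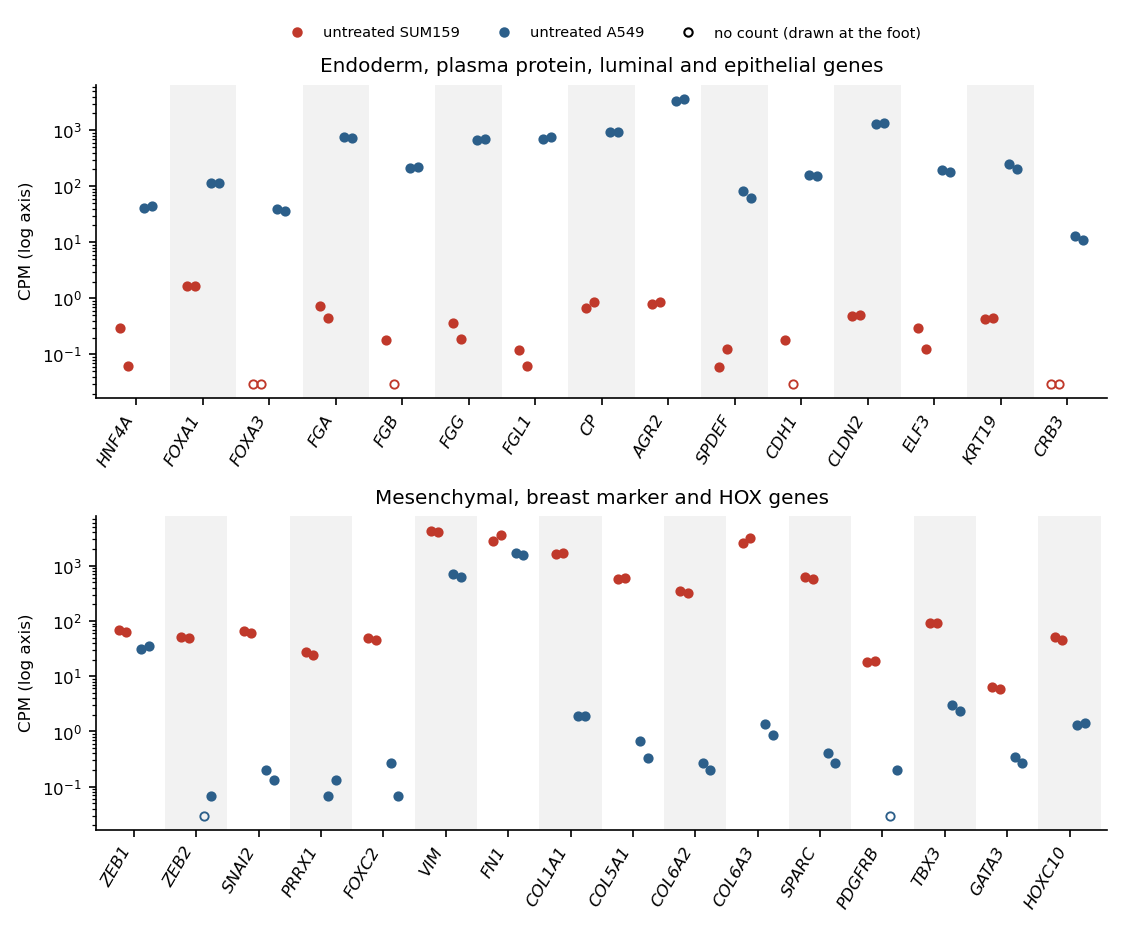
CPM on a log axis for lineage genes in each of the 4 untreated libraries (red SUM159, blue A549; open circles, no count, drawn at the foot). In the upper panel every gene is higher in A549, and in the lower panel every gene is higher in SUM159, by margins from under 2-fold (FN1) to over 1000-fold (COL6A3).

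The repressors ZEB and SNAIL bind the E-box CACCTG, so the letters CACCTG were searched for on both strands in the 250 bases before the starts of genes in RefSeq (GRCh38.p14). They were present in 10 of 27 promoters of the epithelial list (37%), from 9 of the 18 genes with a promoter in the table, and in 6143 of all 35116 promoters (17.5%). A match is a description of letters and not of binding. The promoter of CRB3 (plus strand, chr19:6464021-6464270), a polarity protein of the apical membrane, held 5 matches. CRB3 read 13.1 and 11.1 CPM in A549 and had no count in SUM159, at least 64.2-fold lower. The matches are in capitals, on either strand.
CRB3: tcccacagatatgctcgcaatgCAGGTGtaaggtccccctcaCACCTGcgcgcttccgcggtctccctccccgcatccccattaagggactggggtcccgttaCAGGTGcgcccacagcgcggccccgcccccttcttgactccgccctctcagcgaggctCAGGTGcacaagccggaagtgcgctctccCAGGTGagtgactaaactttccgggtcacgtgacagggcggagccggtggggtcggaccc

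Positional identity, read from the HOX genes that mark the body axis, also differed. Of 39 HOX genes, 28 were tested, with 16 lower and 5 higher in SUM159 (median -1.87). Of the 10 HOXB genes, 9 were tested and all 9 were lower in SUM159, and HOXB1 had no count in either line. HOXB9 read 30.3 and 30.5 CPM in A549 and had no count in SUM159, a difference of at least 162-fold. HOXB8 read 14.1 and 15.7 CPM in A549, again with no count in SUM159 (at least 79.1-fold). HOXC10 showed the opposite, at 51.4 and 45.5 CPM in SUM159 and 1.29 and 1.4 CPM in A549 (5.16 ± 0.17), while HOXC4, of the same cluster, read 18.2 and 19.8 CPM in SUM159 and 19.1 and 19.3 CPM in A549 (-0.01 ± 0.12).

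Cancer testis antigens, which are normally limited to germ cells and reappear in tumours, were found mainly in SUM159. Of 26, 15 were tested, with 13 higher and 1 lower in SUM159, and 24 of the 26 had at most 3 counts in each A549 library. The list's median was 8.42, or 4.95 with genes at 0 at their bound. MAGEC2 read 182 and 172 CPM in SUM159 and 0.136 and 0.133 CPM in A549 (10.28 ± 0.20). MAGEC1 read 27 and 29.9 CPM in SUM159 with no count in A549 (at least 140-fold higher), and PAGE5 read 54.0 and 48.0 CPM with none (at least 250-fold). PRAME was the reverse, at 151 and 150 CPM in A549 with 3 counts in all in SUM159 (ratio 1636, interval 559 to 7936). The MAGEA, PAGE, GAGE and SSX genes have near-identical copies that share reads, so the values of single members are uncertain.

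Genes present in only 1 of the untreated lines were counted by a fixed rule. It asked for at most 3 counts in each untreated library of one line and at least 10 CPM in each of the other. There were 139 such genes for SUM159 and 251 for A549, of which 127 and 223 were protein-coding. The 15 largest fitted differences in each direction were mostly of this kind, and 25 of these 30 genes had no count in the lower line, so that their order depends on the prior count of the fit and is not given. In SUM159 they included IL7R, the interleukin-7 receptor, at 135 and 117 CPM (at least 620-fold higher). SLC14A1, the urea transporter of red cells and kidney, read 92.3 and 85.6 CPM (at least 436-fold). MME, the membrane peptidase that marks stromal and myoepithelial cells, read 75 and 67.3 CPM (at least 349-fold). THY1, a surface glycoprotein of fibroblasts, and CSPG4, a proteoglycan of pericytes, were in the same group, CSPG4 with 226 and 230 CPM and a single count in A549. In A549 treated with PF-06873600, IL7R read 1.991 and 1.855 CPM and THY1 1.608 and 1.484 CPM. There SLC14A1 read 0 and 0.1237 CPM, MME 0 and 0.06183 CPM, and CSPG4 0.1531 and 0.1855 CPM. In A549 they included KCTD15 at 138 and 119 CPM (at least 684-fold), the alcohol dehydrogenase ADH6 at 93.5 and 92.7 CPM (at least 496-fold) and the polysialyltransferase ST8SIA4 at 80.7 and 95.1 CPM (at least 468-fold). KIF12, a kinesin, stood out for its spread, with 93.3 and 53.9 CPM in A549.

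The most abundant genes with at least 4-fold differences described each line in brief. In SUM159 they included vimentin, the tubulin TUBB, the matrix proteins THBS1, COL6A3, COL1A1 and TGFBI, the myosin heavy chain MYH9, the caveolin CAV1 and the peptidase ANPEP. In A549 the list held the dehydrogenases and reductases ALDH3A1, AKR1B10, ALDH1A1 and NQO1, the aspartyl hydroxylase ASPH, the iron store FTL, the mucins and AGR2. CA12, a carbonic anhydrase at the cell surface, read 3045 and 3222 CPM in A549 and 244 and 226 CPM in SUM159 (-3.74 ± 0.12).

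Among tumour suppressors, CDKN2A and CDKN2B of the 9p21 region were at or near 0 in both lines, while several genes around them differed. This region holds CDKN2A and CDKN2B, which encode inhibitors of CDK4 and CDK6, and it is among the most frequently deleted in cancer. CDKN2A had no count in A549 and 3 and 1 counts in SUM159, CDKN2B had a single count over the 4 libraries, and MTAP, the neighbouring enzyme of methionine salvage, had 5 and 0 counts in A549 and none in SUM159. From MLLT3 to TUSC1, 85 genes are annotated. The 17 looked at had at least 10 counts over the 4 libraries or were in the list, and the rest had fewer counts. A gene without counts in SUM159 could pass this count limit only through A549. Several of the 17 had counts in A549 and few or none in SUM159. Of 13 genes in the list, 8 were tested, with 7 lower and 1 higher in SUM159. MIR31HG, the host transcript of miR-31, had 514 and 480 counts in A549 and none in SUM159 (at least 178-fold lower), and HACD4, DMRTA1 and IFNE were also without a count in SUM159, although IFNE lies within MIR31HG and the reads of these cannot be separated with certainty. CDKN2B-AS1, the long non-coding RNA that runs across CDKN2B and the start of CDKN2A on the other strand, had 98 and 122 counts in A549 and 2 and 2 in SUM159 (-5.82 ± 0.38). KLHL9 (86 and 97 counts against 1290 and 1416) and FOCAD (64 and 56 against 962 and 995) were reduced but not lost. MLLT3, which lies beyond FOCAD, was looked at after these values were seen, and it had 1 and 0 counts in SUM159 against 1367 and 1601 in A549. At the other end, ELAVL2 had 60 and 69 counts in SUM159 and 0 and 1 in A549, and TUSC1, also looked at afterwards, was expressed in both lines (81 and 61 counts against 110 and 102). MLLT3 lies at chr9:20341669-20622499 and TUSC1 at chr9:25676969-25678444 (GRCh38). Among the 17 genes, the run with at most 5 counts in each SUM159 library extended from HACD4 to LINC01239, except for KLHL9. DNA copy number was not measured here.

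**Figure D3:**
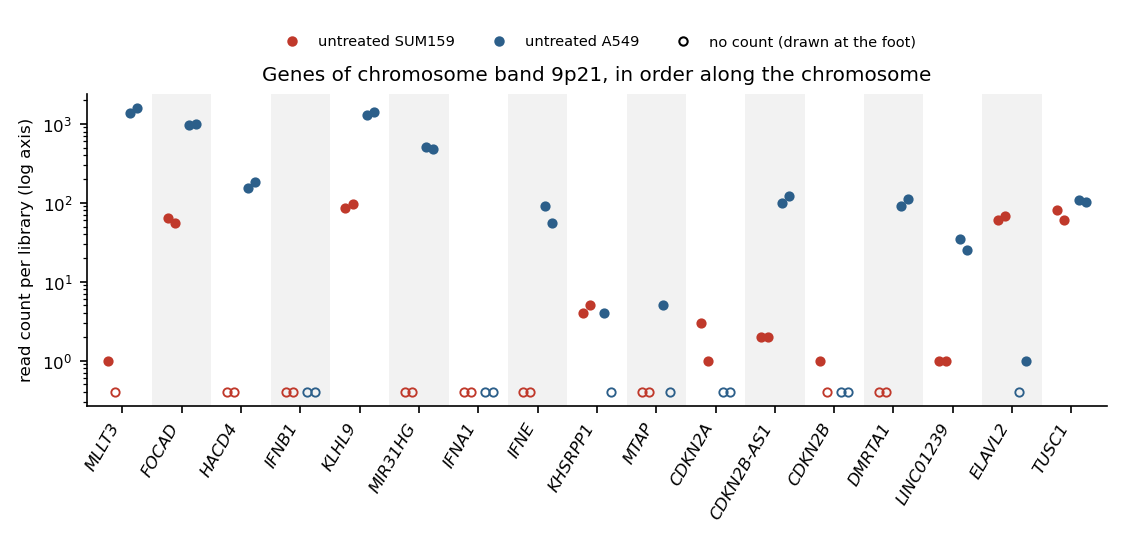
Read counts per library on a log axis for 17 genes of band 9p21 in their order along the chromosome (red SUM159, blue A549; open circles, no count, drawn at the foot). Of 85 genes annotated in the window, these had at least 10 counts over the 4 libraries or were in the gene list. Genes from HACD4 to LINC01239 are at 5 counts or fewer in SUM159 except KLHL9, while in A549 MTAP, CDKN2A, CDKN2B, IFNA1, IFNB1, ELAVL2 and the pseudogene KHSRPP1 are that low.

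Oncogenes and tumour suppressors outside 9p21 gave fewer large differences. Of 29 genes, 27 were tested, with 8 higher and 4 lower in SUM159 (median 0.51), close to or below the background shares. SMARCA4, the ATPase of the SWI/SNF chromatin remodelling complex, read 252 and 261 CPM in SUM159 and 12 and 8.27 CPM in A549 (4.66 ± 0.15, edgeR adjusted p = 5.74e-10). Its paralogue SMARCA2 differed by less than 2-fold (-0.23 ± 0.09). Receptor kinases were split. ERBB3, a partner of ERBB2, read 0.362 and 0.313 CPM in SUM159 and 267 and 265 CPM in A549 (-9.59 ± 0.16), and IGF1R was also lower (-1.57 ± 0.09). AXL, a receptor kinase tied to mesenchymal states, read 670 and 616 CPM in SUM159 and 44.1 and 43.9 CPM in A549 (3.87 ± 0.10), and FGFR1 was higher (1.18 ± 0.09). MYC, the growth-promoting transcription factor, read 291 and 270 CPM in SUM159 and 124 and 107 CPM in A549 (1.28 ± 0.10). EGFR was called but under 2-fold (0.78 ± 0.09), and MET read 410 and 403 CPM in SUM159 and 363 and 406 CPM in A549 (0.08 ± 0.09).

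SUM159 is known to carry an activated HRAS, but sequence changes were not analysed here. HRAS was higher in SUM159, at 60.3 and 61.8 CPM against 19.2 and 18.5 CPM (1.69 ± 0.10). Of 12 genes commonly used as a readout of RAS-MAPK signalling, 4 were higher and 4 lower in SUM159. DUSP4, a phosphatase that switches off ERK, read 502 and 499 CPM in A549 and 28.1 and 26.8 CPM in SUM159 (-4.19 ± 0.10). FOSL1, an AP-1 factor induced by ERK, read 216 and 195 CPM in SUM159 and 7.61 and 8.73 CPM in A549 (4.65 ± 0.12). Members of this list thus differed in both directions. The higher count fell to 2 with TMM or DESeq2 scaling, because SPRY4 and EPHA2 lay at the 2-fold limit.

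Targets of YAP and TEAD, the transcription factors that respond to stiffness and loss of Hippo signalling, were mostly higher in SUM159. All 22 were tested, with 13 higher and 2 lower (median 1.69). F3, tissue factor, read 432 and 468 CPM in SUM159 and 7.21 and 8.07 CPM in A549 (5.88 ± 0.12). CCN1, a matricellular protein, read 334 and 323 CPM against 8.16 and 9.0 CPM (5.26 ± 0.11), and ANKRD1 read 80.9 and 78.6 CPM against 1.5 and 1.6 CPM (5.68 ± 0.14). The lower members were IGFBP3, the main carrier of insulin-like growth factors, at 5.61 and 5.14 CPM in SUM159 and 768 and 822 CPM in A549 (-7.21 ± 0.13), and the kinase NUAK2 (-2.04 ± 0.20).

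Cell cycle genes were higher in SUM159 as a group. All 20 proliferation genes were at least 2-fold higher, with a median of 1.89 and a range from 1.02 (PCNA) to 3.08 (RRM2). RRM2, the subunit of ribonucleotide reductase that limits DNA synthesis, read 454 and 420 CPM in SUM159 and 49.5 and 53.4 CPM in A549. Growth rate was not measured in these libraries. Of 32 genes of the CDK and RB machinery and of the indisulam target complex, 29 were tested, with 12 higher and 1 lower in SUM159 (median 0.88). CDK2, the kinase that acts with cyclin E, read 103 and 102 CPM in SUM159 against 25.9 and 23.8 CPM in A549 (2.04 ± 0.10). CCNE2, its cyclin, read 28.5 and 31.1 CPM against 2.38 and 2.67 CPM (3.56 ± 0.16). CDK6 was also higher (1.58 ± 0.12), whereas CDK4 read 195 and 192 CPM in SUM159 and 170 and 179 CPM in A549 (0.15 ± 0.09). RB1, the brake that these kinases release, was higher in SUM159 (1.49 ± 0.11), and CDKN1B, the p27 inhibitor, was the lower member, at 19.9 and 18 CPM against 63.4 and 59.2 CPM (-1.69 ± 0.11). Indisulam acts by joining the splicing factor RBM39 to the ligase receptor DCAF15. DCAF15 read 32.1 and 33.9 CPM in SUM159 and 10.4 and 9.40 CPM in A549 (1.74 ± 0.13), and RBM39 was called but under 2-fold (0.61 ± 0.09).

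The metabolic lists were led by NRF2 targets, which were far higher in A549. Of 39 genes, 38 were tested, with 28 lower and 1 higher in SUM159 (median -2.40). Their summed level was 55339 and 54613 CPM in A549, over 5% of all counts, against 11207 and 10594 CPM in SUM159. AKR1B10, an aldo-keto reductase, read 6296 and 6667 CPM in A549 and 3.92 and 3.57 CPM in SUM159 (-10.75 ± 0.18). GPX2, a glutathione peroxidase, read 1509 and 1548 CPM in A549 and 0.724 and 0.188 CPM in SUM159 (-11.67 ± 0.23). NQO1, the quinone reductase often taken as the readout of NRF2, read 3356 and 3578 CPM in A549 and 376 and 356 CPM in SUM159 (-3.25 ± 0.11, edgeR adjusted p = 1.19e-09). SLC7A11, the cystine importer, differed less (-1.47 ± 0.11). HMOX1, haem oxygenase, went the other way at 189 and 200 CPM in SUM159 and 16.4 and 14.4 CPM in A549 (3.66 ± 0.11). Neither NFE2L2, which encodes NRF2 (0.25 ± 0.09), nor KEAP1 (0.01 ± 0.09) differed by as much as 2-fold at the RNA level. AKR1C1, AKR1C2 and AKR1C3, all lower in SUM159, are near-identical paralogues whose reads may be split.

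The core of the antioxidant response element, TGACNNNGC, was present in 10 of 34 promoters of this list (29.4%), from 9 of the 27 genes with a promoter in the table, and in 3830 of all 35116 promoters (10.9%). GPX2 (minus strand, chr14:64942746-64942995) and ME1 (minus strand, chr6:83431052-83431301) are shown because both hold a match and differed so unequally, ME1 being malic enzyme with 129 and 121 CPM in SUM159 and 183 and 203 CPM in A549 (-0.62 ± 0.09). The match, in capitals, begins 122 bases before the start in GPX2, where it reads as its complement, and 137 bases before it in ME1.
GPX2: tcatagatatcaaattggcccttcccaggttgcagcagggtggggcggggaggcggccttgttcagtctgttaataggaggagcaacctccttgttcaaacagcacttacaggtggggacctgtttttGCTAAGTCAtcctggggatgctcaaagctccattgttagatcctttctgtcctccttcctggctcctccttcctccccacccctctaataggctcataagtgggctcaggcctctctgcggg
ME1: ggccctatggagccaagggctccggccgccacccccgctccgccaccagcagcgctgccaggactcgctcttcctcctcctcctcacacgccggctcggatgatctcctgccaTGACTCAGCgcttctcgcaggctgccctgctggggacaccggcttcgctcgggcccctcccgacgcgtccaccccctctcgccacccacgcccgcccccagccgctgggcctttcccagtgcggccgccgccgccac

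Enzymes that make NADPH and 5-carbon sugars followed the same direction in part. Of 14 pentose phosphate and NADPH genes, 8 were lower and 3 higher in SUM159 (median -1.11), and 5 of the 14 are also in the NRF2 list. PGD, a dehydrogenase of the pathway that forms NADPH, was lower (-3.17 ± 0.11). IDH1, the cytosolic isocitrate dehydrogenase, was lower as well (-2.09 ± 0.09). RPIA, the ribose isomerase, was higher in SUM159 (1.83 ± 0.13), as were the mitochondrial enzymes ME2 (1.58 ± 0.10) and NNT (1.07 ± 0.09).

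Of 18 serine and one-carbon genes, 11 were lower and 3 higher in SUM159 (median -1.44). The enzymes that make serine were all lower, PHGDH at 38.5 and 40.0 CPM against 319 and 289 CPM in A549 (-2.96 ± 0.10), PSAT1 (-1.92 ± 0.11) and PSPH (-1.71 ± 0.10). The serine and alanine carrier SLC1A4 read 3.98 and 4.95 CPM against 69.5 and 69.3 CPM (-3.96 ± 0.13). The members higher in SUM159 included MTHFD1 (1.33 ± 0.09) and TYMS (1.65 ± 0.10), the thymidylate synthase that supplies DNA synthesis. Among 18 aldehyde dehydrogenases, 16 were tested, with 9 lower and 1 higher in SUM159 (median -1.41). ALDH1A1, which makes retinoic acid and is used as a stem cell marker, read 3855 and 4100 CPM in A549 and 1.33 and 1.5 CPM in SUM159 (-11.45 ± 0.18). ALDH2, the mitochondrial enzyme that clears acetaldehyde, read 371 and 356 CPM in A549 and had 2 and 2 counts in SUM159 (-11.44 ± 0.19). Its relative ALDH1A3 was the higher member, at 12.8 and 11.9 CPM in SUM159 and 0.340 and 0.200 CPM in A549 (5.48 ± 0.30).

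Glycolysis genes were mixed at the level of the list, with 8 of 22 higher and 3 lower in SUM159 (median 0.66), and the hexokinases were among the higher ones. HK2, the hexokinase induced in many tumours, read 110 and 109 CPM in SUM159 and 0.612 and 0.6 CPM in A549 (7.48 ± 0.16). HK1 was expressed by both lines, at 513 and 474 CPM against 101 and 95.7 CPM (2.32 ± 0.10). The glucose carrier SLC2A3 (4.44 ± 0.16) and the lactate exporter SLC16A3 (3.0 ± 0.11) were higher in SUM159, and so was LDHA (1.32 ± 0.11), which forms lactate. LDHB, which favours the reverse reaction, was lower (-1.19 ± 0.09). PKM read 3584 and 3320 CPM in SUM159 and 3937 and 3508 CPM in A549 and did not pass the test (-0.11 ± 0.12).

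**Figure D4:**
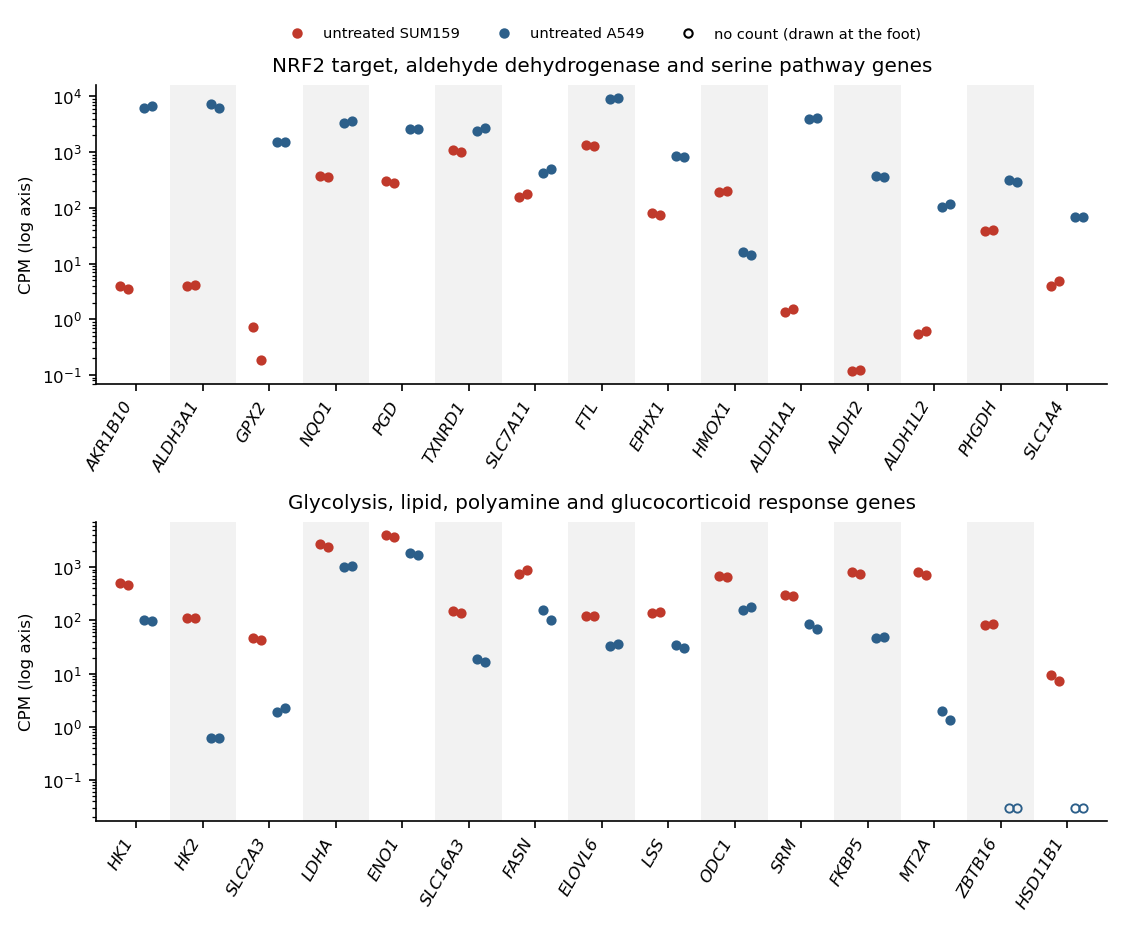
CPM on a log axis for metabolic and hormone response genes in each of the 4 untreated libraries (red SUM159, blue A549; open circles, no count, drawn at the foot). The upper panel holds genes higher in A549 apart from HMOX1, and in the lower panel every gene is higher in SUM159.

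Of 29 genes of fatty acid and cholesterol synthesis, 9 were higher and 1 lower in SUM159 (median 0.70). FASN, the fatty acid synthase, read 744 and 892 CPM in SUM159 and 157 and 101 CPM in A549 (2.66 ± 0.18). LSS, which closes the sterol rings, was higher (2.12 ± 0.10), as were INSIG1 (2.04 ± 0.10) and the elongase ELOVL6 (1.81 ± 0.10). SCD, the desaturase, was called but under 2-fold in the other direction (-0.45 ± 0.10). Among 14 urea cycle, arginine and polyamine genes, 12 were tested, with 6 higher and 3 lower in SUM159. The polyamine enzymes ODC1, at 681 and 645 CPM against 157 and 180 CPM (1.98 ± 0.10), SRM (1.93 ± 0.11) and SMS (1.34 ± 0.09) were higher, and SAT1, which degrades polyamines, was lower (-2.79 ± 0.11). The urea cycle enzymes CPS1 (-1.30 ± 0.10) and ASS1 (-1.30 ± 0.09) were lower. None of the 13 mitochondrially encoded genes differed by 2-fold, and 2 of them, MT-ND3 and MT-ND5, were called at under 2-fold. The spread between duplicates was wide, with MT-ND4 at 5449 and 9338 CPM in SUM159 and 8813 and 6819 CPM in A549.

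Glucocorticoid response genes were higher in SUM159, the line whose medium held hydrocortisone. Glucocorticoids act through the receptor NR3C1, which enters the nucleus and induces a small set of genes in most cell types. Of 20 genes, 19 were tested, with 11 higher and 0 lower by 2-fold in SUM159 (median 2.77). ZBTB16, a zinc finger factor strongly induced by steroids, read 82.9 and 85.9 CPM in SUM159 with no count in A549, at least 414-fold higher. FKBP5, a receptor co-chaperone, read 800 and 753 CPM in SUM159 and 46.1 and 49.4 CPM in A549 (4.02 ± 0.11, edgeR adjusted p = 1.59e-10). The clock gene PER1 (4.09 ± 0.12), KLF9 (4.03 ± 0.16) and TSC22D3, the leucine zipper GILZ (2.09 ± 0.09), were also higher. The metallothionein MT2A, which binds zinc and copper and also responds to metals, has near-identical relatives and read 799 and 727 CPM in SUM159 and 1.97 and 1.33 CPM in A549 (8.85 ± 0.17). HSD11B1, which activates cortisone to cortisol, read 9.59 and 7.2 CPM in SUM159 and had no count in A549 (at least 41.2-fold). NR3C1 itself was lower in SUM159, but by under 2-fold (-0.92 ± 0.11). With TMM or DESeq2 scaling it passed 2-fold. The effect of the medium was not tested.

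Secreted inflammatory factors were mixed, with 9 higher and 4 lower in SUM159 among 19 tested of 26. CXCL5, a neutrophil attractant, read 215 and 251 CPM in A549 with a single count in SUM159, and LIF was also lower (-4.83 ± 0.19). CCL5 (10.4 and 8.64 CPM with 2 counts in A549) and the EGFR ligands EREG (1.93 ± 0.10) and HBEGF (2.61 ± 0.19) were higher in SUM159. Markers of leukocytes and endothelium were used to look for other cells. Their summed level was 22.7 and 24.0 CPM in SUM159 and 11.3 and 9.87 CPM in A549, 11 of the 16 had at most 3 counts in each library of SUM159, and the same number did in A549. The most abundant was PECAM1 in SUM159 (10.9 and 11.5 CPM) and CD14 in A549. CD3E and MS4A1 had no count in any of the 4 libraries, and CDH5 had a single count. PTPRC, the leukocyte marker CD45, nevertheless read 9.35 and 9.89 CPM in SUM159 with 2 counts in A549 (ratio 143, interval 39.2 to 1185).

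By chromosome, the medians of the tested genes were spread around the median of all genes. Chromosome 12 had the lowest median, -0.45 over 867 genes, followed by chromosome 8 (-0.30 over 569 genes). Chromosome 13 had the highest, 0.76 over 273 genes, followed by chromosomes 18 (0.60 over 219) and 22 (0.59 over 355). The libraries treated with PF-06873600 gave -0.44 and -0.29 for chromosomes 12 and 8, and 0.56, 0.49 and 0.39 for chromosomes 13, 18 and 22. These values are descriptive and carry no test.

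The same contrast was then made in the libraries treated with PF-06873600. Its median over all genes tested was 0.09, and 0.02 with TMM factors. Of 16172 genes tested there, 3709 (22.9%) were at least 2-fold higher and 3011 (18.6%) at least 2-fold lower in SUM159, together 41.6%, and 83.5% were called at any size (45.5% higher and 38.0% lower). The treated duplicates lay closer together, with a biological coefficient of variation in edgeR of 0.0238 against 0.0834 untreated. The shares called in the 2 sets are therefore not directly comparable. The test of a different contrast with treatment, an interaction over the 8 libraries that was chosen after seeing the data, called 52.7% of genes. It used the spread of both sets together. Among the genes higher in untreated SUM159, 2124 were also higher after treatment, which is 55.5% of the untreated and 57.3% of the treated calls. Among those lower, 2165 were also lower, 58.5% and 71.9% of the calls. In the opposite direction were 37 and 111 genes. Of the genes present in only 1 untreated line, 85 of 139 for SUM159 and 100 of 251 for A549 met the same rule after treatment.

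Most list medians were closer to 0 with treatment and had the same sign. Those of glycolysis (0.66 untreated and -0.16 treated) and of the urea cycle, arginine and polyamine genes (1.15 and -0.01) changed sign. Of the mesenchymal genes, 29 of 36 tested were higher and 3 lower in treated SUM159 (median 3.01). Of 20 glucocorticoid response genes, 13 were higher and 2 lower (median 1.99). Of 39 NRF2 targets, 30 were lower and 3 higher (median -1.88), and of 20 plasma proteins, 14 were lower and 4 higher (median -6.59). Of the proliferation genes, 20 were higher by 2-fold untreated and 4 treated (median 0.53). Of the CDK and RB list, 12 were higher and 1 lower untreated, and 5 were higher and 2 lower treated. Among secreted inflammatory factors, 9 of 19 tested were higher and 4 lower untreated, and 14 of 25 tested were higher and 5 lower treated (median 2.22). Of the leukocyte and endothelial markers, 6 were tested untreated, with 3 higher and 3 lower (median 0.61). With treatment 9 were tested, with 6 higher and 2 lower (median 2.18). Whether these changes of the lists exceed those of other genes was not tested.

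**Figure D5:**
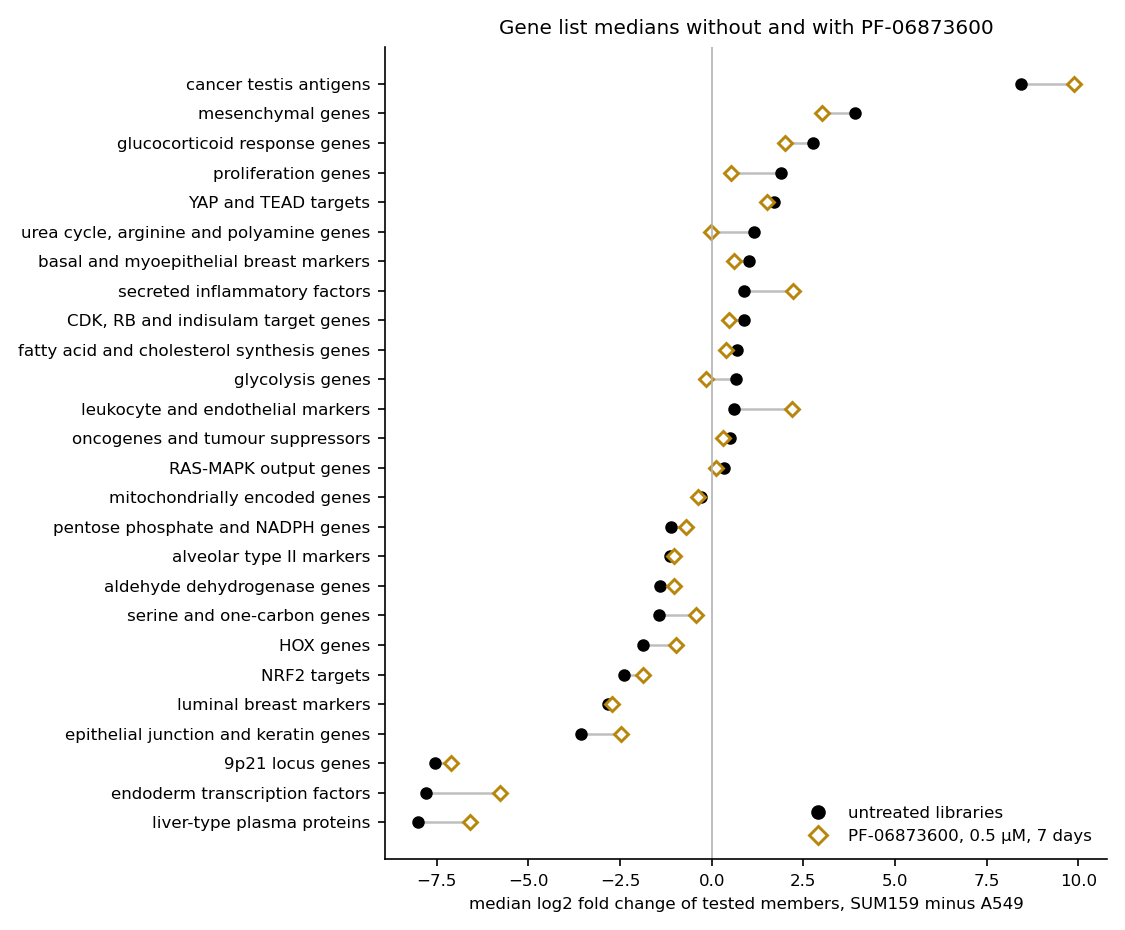
Median log2 fold change between SUM159 and A549 (x axis) over the tested members of each gene list, in untreated libraries (black circles) and in libraries treated with PF-06873600 (open diamonds), with 2 libraries per line in each. The proliferation median lies at 1.89 untreated and 0.53 treated, and the NRF2 target median at -2.40 and -1.88.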

How the data were processed

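Total RNA of cultured cells was sequenced from polyA-selected stranded libraries in single-end reads. The authors deposited raw counts per Ensembl gene for each library; their processing notes list HISAT2 2.2.1, HTSeq and GRCh38, while the strand setting and annotation release are not given in the sources used here. If strand was ignored, reads of 220 of the 585 list genes could not be told apart from those of an overlapping antisense gene. Symbols and positions came from GENCODE 44. Only rows naming a gene were used; the other rows held 16.9% to 21.9% of reads in the untreated libraries. Counts of the 4 untreated libraries were scaled by total counts, filtered with filterByExpr and fitted with edgeR 4.0.16 (R 4.3.3), and the 4 treated libraries likewise; the exact permutation test of 2 against 2 libraries cannot go below p = 0.33. Duplicates differed by more than sampling noise (chi-square per degree of freedom 9.57 in A549 and 9.05 in SUM159) and were kept as separate libraries. In simulated counts for the untreated comparison, 14968 genes were tested, and 67, 67 and 66 of them were changed 1.5-, 2- and 4-fold. Genes with low counts were not changed, and every gene had the same biological coefficient of variation, 0.0834. Of the changed genes, 77.6%, 86.6% and 100% were recovered, with 3.3% false calls. The real comparison called 78.6% of genes, so these rates do not give the error of its calls. The comparison, gene lists and rules were chosen with earlier results of these data known. Named genes are list members, the 15 largest protein-coding differences each way at 20 CPM or more, and the 10 most abundant genes in each line with at least 4-fold differences. Alternatives were TMM factors, DESeq2 1.42.0, no filter, a mean of 50 counts, all 14 libraries, a replicate block and leaving out each library. Some list members and a list are not reported here.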

Additional observations from a re-analysis of the deposited data

Results flagged for a closer look

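Some members of the gene lists differed between the lines in opposite directions without and with PF-06873600. The difference of the 2 contrasts was tested as an interaction over 8 libraries (edgeR quasi-likelihood test, chosen after seeing the data), which called 52.7% of 16707 genes, and 148 genes were also called at least 2-fold in opposite directions. CXCL1, a neutrophil-attracting chemokine, was lower in untreated SUM159 (1.57 and 2.13 CPM against 25.8 and 23.8 CPM in A549) and higher after treatment (339 and 337 CPM against 47.3 and 44.3 CPM), an interaction of 6.63 on the log2 scale. KRT80 did the reverse, with log2 fold changes of 2.66 untreated and -2.08 treated, an interaction of -4.74. The 6 other genes given here were lower in untreated and higher in treated SUM159, as CXCL1 was. SERPINA1, the antitrypsin gene, gave 3.55, and the claudin CLDN1 gave 3.35. ASS1, which makes argininosuccinate, gave 2.83, and ALDH6A1, of valine breakdown, gave 2.51. ALDH1L1 gave 6.97 and ITGAM 2.87, both at low levels, with ALDH1L1 at 2 counts in all in untreated SUM159. The largest adjusted p among these interactions in edgeR's test was 0.000133.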

How the results depend on the processing

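Of 374 named genes called with at least 2-fold differences, 369 kept their direction and their adjusted p under 0.05 in every alternative that tested them, and no called gene reversed. The counts of genes with at least 2-fold differences moved most with a mean of at least 50 counts, which tests fewer genes by its construction. With it 2261 genes were at least 2-fold lower, and with PF-06873600 2328 were higher and 1844 lower. The same filter left 1 plasma protein, 1 epithelial gene, 3 HOX genes, 8 cancer testis antigens, 0 genes of 9p21 and 5 inflammatory factors higher, and 8 HOX genes and 0 leukocyte and endothelial markers lower. Without a filter, or with all 14 libraries in the model, 4 alveolar markers were lower. With DESeq2 1 plasma protein was higher, because AFP no longer passed the adjusted p. With TMM factors or DESeq2 2 RAS-MAPK genes were higher and 1 glucocorticoid response gene was lower, and the genes that differ (SPRY4, EPHA2 and NR3C1) lie near the 2-fold limit. Requiring 0 counts gave 58 genes restricted to SUM159 and 85 to A549, and requiring 1 CPM gave 568 and 817. Leaving out 1 library at a time gave 5878 to 6765 genes higher and 5179 to 5510 lower, 2 to 4 alveolar markers lower (4 without the first SUM159 library), 0 to 1 glucocorticoid response genes lower (1 without the first A549 library), and 0 to 1 mitochondrial genes lower (1 without the second SUM159 library). The libraries share replicate numbers. Same-numbered untreated libraries deviated in opposite directions (correlation of deviations -0.307), and treated ones neither together nor apart (0.0119), so the numbers were not used as pairs. A replicate block gave 6340 genes higher and 5373 lower. The crossed pairing, chosen after seeing the data, gave 6706 and 5741. Genes with few counts have wide intervals, and a gene with no count in a library of 14712412 to 16582253 counts may be present at up to 3 counts.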
